A study of Mus musculus with 5 samples.

Results

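Apoe, Lrp1, Clec4a1, Clec4a3 and Fn1 are 5 of the 31053 genes counted in this single-cell series of mouse bone marrow (BM) after chemotherapy. They were taken by symbol as a group of genes tied to late monocyte maturation, chosen by their UMI levels in the cycling, non-cycling, MHC II-rich and azurophil-rich monocyte gates of these same libraries, so those levels are given as a description and without a test. The series holds 5 droplet libraries, each 1 sample of 1 condition, from BALB/c mice. Whole BM, labelled CD45+ BM mononuclear cells, came from untreated mice (naive) and from mice given intraperitoneal cyclophosphamide (CTX), an alkylating chemotherapeutic, at 150 mg/kg, either 2 days (D2 CTX) or 7 days (D7 CTX) earlier. Equal numbers of cells from 3 mice were pooled for each whole BM library, so the spread between mice is not visible. CD11b+Ly6Chi monocytes, with a stated purity above 98%, were sorted from naive and from CTX-treated mice. The labels name neither the day of CTX nor the number of mice for the sorted pair, and the study's text places the CTX sort at day 7. All animals were tumor-free and otherwise unmodified, and dead cells had been removed from the whole BM before capture. With 1 library per condition there is no replicate, and no p value is given.

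ApoE is a secreted lipid carrier, made by hepatocytes and by many macrophages, that brings lipoprotein particles to receptors on the cell surface. LRP1 is a very large endocytic receptor. It takes up ApoE-bearing particles, protease-inhibitor complexes and other ligands. Clec4a1 and Clec4a3 encode C-type lectin receptors of the dendritic cell immunoreceptor family, which lie in 1 gene cluster and are found on monocytes, macrophages and dendritic cells. Fn1 encodes fibronectin, a secreted matrix glycoprotein bound by integrins and transcribed strongly in classical monocytes. Monocytes arise in BM from cycling progenitors that still hold transcripts of azurophil granule proteins such as Mpo and Elane. These transcripts fade as the cells leave the cycle and mature, and a minority acquires MHC class II. Neutrophil-like monocytes (NeuMo) are the granule-rich branch that the study set out to follow after CTX.

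In mm10, the UCSC name of GRCm38, Apoe lies on chromosome 7 (chr7:19696109-19699188, minus strand), Lrp1 on chromosome 10 (chr10:127538161-127621148, minus strand) and Fn1 on chromosome 1 (chr1:71585520-71653200, minus strand). Clec4a1 (chr6:122921848-122934619) and Clec4a3 (chr6:122952515-122969875) sit on the plus strand of chromosome 6 with 17895 bases between them. The file identifiers are ENSMUSG00000002985, ENSMUSG00000040249, ENSMUSG00000026193, ENSMUSG00000049037 and ENSMUSG00000043832, in that order. The 250 bases before the start site are shown for Apoe, whose level moved most between gates, and for the neighbouring lectin genes, whose levels followed each other most closely. They come from RefSeq, build GRCm38.p6, run 5′ to 3′ on the gene's own strand, and cover chr7:19699189-19699438 for Apoe, chr6:122921598-122921847 for Clec4a1 and chr6:122952265-122952514 for Clec4a3. Capitals mark GAGGAA, the core bound by the myeloid factor PU.1, or its reverse complement TTCCTC.
Apoe: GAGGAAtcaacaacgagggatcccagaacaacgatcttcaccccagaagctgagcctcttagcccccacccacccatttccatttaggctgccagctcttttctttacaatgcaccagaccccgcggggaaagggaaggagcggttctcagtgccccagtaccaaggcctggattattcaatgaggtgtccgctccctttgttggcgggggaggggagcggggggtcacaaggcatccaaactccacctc
Clec4a1: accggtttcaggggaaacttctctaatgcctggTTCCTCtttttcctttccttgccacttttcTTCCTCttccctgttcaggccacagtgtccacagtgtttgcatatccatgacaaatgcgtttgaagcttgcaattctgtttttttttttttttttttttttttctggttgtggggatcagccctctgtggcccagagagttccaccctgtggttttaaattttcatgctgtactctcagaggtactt
Clec4a3: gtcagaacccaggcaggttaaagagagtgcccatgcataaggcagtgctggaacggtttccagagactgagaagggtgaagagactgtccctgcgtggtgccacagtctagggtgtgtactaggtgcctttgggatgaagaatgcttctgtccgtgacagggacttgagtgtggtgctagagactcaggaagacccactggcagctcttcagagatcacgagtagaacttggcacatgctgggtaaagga
GAGGAA was searched on both strands and occurred in 23.3% of the 32851 promoters of this length. It was present once in the Apoe window and at 2 places in the Clec4a1 window, and these letters were not in the Clec4a3 window. A C/EBP-type TTGCNNAA, present in 9.56% of promoters, and TATAAA, present in 12.4%, were found in none of the 4 member windows, which include that of Lrp1. GGGCGG, present in 32.7%, was found once, in Lrp1. GC content was 57.2% in Apoe, 67.2% in Lrp1, 42.8% in Clec4a1 and 53.2% in Clec4a3, against a median of 52.4% over all windows. The windows of Clec4a1 and Clec4a3 shared no run longer than 8 bases and had equal bases at 24.4% of positions counted from the start site. A match is a description of the letters and not a site of binding. In the reference transcripts, 0 of the 50-base windows of the 5 genes occurred in a transcript of another gene, so reads of Clec4a1 and Clec4a3 could be told apart.

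The libraries held between 2223 and 8605 barcodes and between 22694817 and 68459527 unique molecular identifiers (UMIs), the count of distinct captured transcripts. After cells with under 200 genes or 20% or more mitochondrial UMIs were removed, 7104 naive, 6126 D2 CTX and 8290 D7 CTX cells were left in whole BM, with 1891 naive and 2564 CTX cells in the sorted pair. Monocytes were gated by at least 3 of Csf1r, Ccr2, F13a1 and Ms4a6c, none of which is a member. The gate took 517 naive, 213 D2 CTX and 799 D7 CTX cells of whole BM (7.28%, 3.48% and 9.64%), and 1808 and 2392 sorted cells (95.6% and 93.3%). Within it, cells were split in order into azurophil-rich (Mpo, Elane, Prtn3 and Ctsg), MHC II-rich (Cd74, H2-Aa, H2-Ab1 and H2-Eb1), cycling (14 cell cycle genes) and non-cycling cells. These are ranges of a summed level and not cell types. In the sorted naive library 244 cells (13.5%) lay near the azurophil cut (10 to 50 per 10000 UMIs), and in the sorted CTX library 417 (17.4%). The cuts separated the genes they used, with Mpo at 1260.2 CPM (counts per 1000000 UMIs of the gate) in azurophil-rich and 5.63 in non-cycling naive sorted cells. Ly6c2, the transcript of the sorted antigen, was present in both, at 866 and 779 CPM. Library pairs shared at most 15 cell barcodes.

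Apoe set the gates apart more than the other members did. In naive sorted monocytes it stood at 6.80 CPM in azurophil-rich cells (95% counting interval 4.44 to 9.96, 26 UMIs in 200 cells), 53.3 in cycling cells (48.3 to 58.6, 533 cells) and 1235 in non-cycling cells (1213 to 1257, 1053 cells). MHC II-rich cells were highest, at 7362 CPM (6982 to 7757), from 22 cells. Summed macrophage markers (10 genes) also stood higher in these cells than in non-cycling ones, at 68.0 against 13.7 CPM, with C1qa, C1qb and C1qc at 0, and their part in the Apoe level was not tested. The order was the same after CTX. Apoe was at 56.6 CPM in 349 azurophil-rich, 89.8 in 806 cycling, 840.2 in 1230 non-cycling and 7759 in 7 MHC II-rich cells. The macrophage sum of these 7 cells, 51.4 against 8.35 CPM in non-cycling ones, rested on only 2 UMIs, again with C1qa, C1qb and C1qc at 0. The Apoe intervals of the 4 gates did not overlap in either library. All intervals cover counting error only, and not differences between mice or captures.

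The receptor gene Lrp1 kept the same order over a smaller range. It rose from 12.8 CPM in azurophil-rich to 37.8 in cycling, 144 in non-cycling and 173 in MHC II-rich naive sorted cells. After CTX the values were 18.6, 37.8, 126 and 283 CPM, the last from 11 UMIs. The intervals of non-cycling and MHC II-rich cells overlapped in the naive library (136 to 151 and 119 to 242), so these neighbours in the order were not separated at this depth.

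The lectin genes ran in parallel. Clec4a1 was at 19.9, 44.5 and 170.0 CPM in azurophil-rich, cycling and non-cycling naive sorted cells, and Clec4a3 at 28.8, 62.9 and 257. In sorted CTX cells Clec4a1 was at 14.3, 37.1 and 149 CPM, and Clec4a3 at 25.6, 64.1 and 223. In MHC II-rich cells Clec4a1 stood at 193 and Clec4a3 at 449.7 CPM in the naive library, and at 437 and 488 in the CTX library. The MHC II-rich interval of Clec4a1 overlapped that of non-cycling cells in the naive library (136 to 267 against 162 to 178), while that of Clec4a3 lay above it (360 to 555 against 247 to 267).

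Fn1, the matrix gene, followed another order. It was at 533 CPM in azurophil-rich, 1645 in cycling, 1848 in non-cycling and 779 in MHC II-rich naive sorted cells, and at 609, 1694, 1868 and 359.7 after CTX. Its level was thus nearly the same on both sides of the cycling cut, and lower in the MHC II-rich cells of the sorted pair. The other members had their highest values in those cells. For Lrp1 and Clec4a1 in the naive library, however, the intervals overlapped those of non-cycling cells. These levels had a part in the choice of the members and so do not support their name as late maturation genes, and Fn1 did not follow the order of the other 4.

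**Figure D1:**
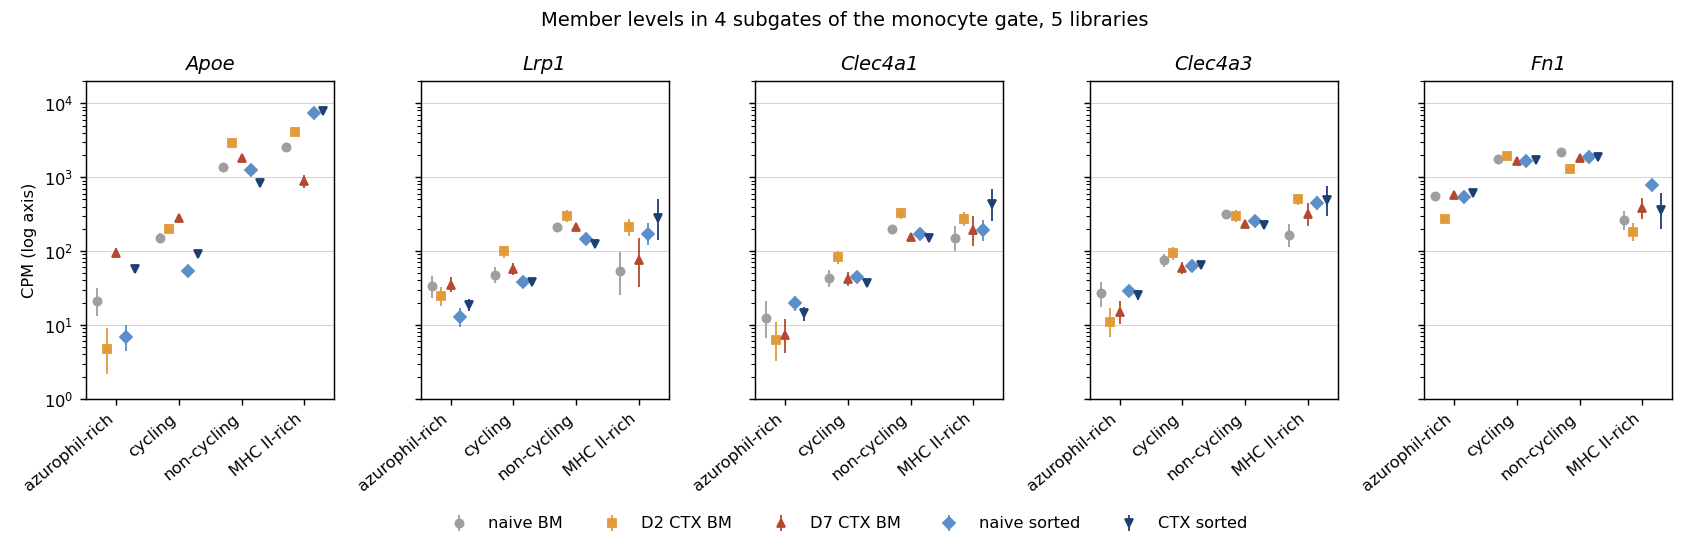
Level of each member (CPM, log axis) in azurophil-rich, MHC II-rich, cycling and non-cycling cells of the monocyte gate, 1 marker per library with its 95% Poisson interval. Apoe spans the widest range, from 4.73 CPM in D2 CTX azurophil-rich cells to 7759 in sorted CTX MHC II-rich cells, while Fn1 in cycling cells stays between 1635 and 1959 in all 5 libraries.

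Set against all genes, azurophil-rich over non-cycling naive sorted cells left 10.7% of 5679 genes at least 1 log2 unit lower and 9.07% higher, and 5 of 5 members were lower. The CTX library gave 9.18% lower and 9.83% higher of 5818 genes, again with 5 of 5 members lower. The members were chosen by their levels in these gates, so counts of members in this and the following gate comparisons carry no weight of their own. In azurophil-rich cells Apoe (6.80 CPM), Lrp1 (12.8) and Clec4a1 (19.9) in naive, and Lrp1 (18.6) and Clec4a1 (14.3) in CTX, were below 20 CPM. They passed the filter only through the non-cycling side and could be counted only as lower. The median log2 difference of the members was -3.11 and -3.08, where that of all genes was -0.02 and -0.06. For Apoe the log2 ratio was -7.51 in the naive and -3.89 in the CTX library. For Lrp1 it was -3.49 and -2.76, for Clec4a1 -3.10 and -3.38, for Clec4a3 -3.16 and -3.13, and for Fn1 -1.79 and -1.62. The gap of Apoe was thus 3.61 log2 units narrower after CTX, against 0.73 or less in the other members, and this difference between libraries was not tested. With 1 CPM added, the Apoe ratios were -7.31 in naive and -3.87 in CTX cells, -6.21 and -3.83 at an azurophil cut of 10, -7.97 and -4.17 at a cut of 50, and -7.87 and -4.63 without the 5 cells highest in each member, a setting chosen after seeing the data.

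Cycling over non-cycling cells left 7.76% of genes higher and 3.24% lower in the naive library and 8.08% and 2.49% in the CTX library, and 4 of 5 members were lower in each. The log2 ratio of Apoe was -4.54 and -3.23. Lrp1, Clec4a1 and Clec4a3 lay between -2.03 and -1.74, and Fn1 at -0.17 and -0.14. MHC II-rich over non-cycling cells left 3.09% of genes higher and 8.46% lower in the naive library, with Apoe higher (2.58) and Fn1 lower (-1.25). In the CTX library 11.3% were higher and 25.8% lower, in a gate of 7 cells, and 4 members were higher and Fn1 lower (-2.38).

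In whole BM, where no sort had been applied, azurophil-rich, cycling and non-cycling cells kept this order for Apoe, and MHC II-rich cells did not in every library. In the naive library Apoe was at 20.9 CPM in azurophil-rich, 152 in cycling, 1369.5 in non-cycling and 2577 in MHC II-rich cells. At D2 CTX the same gates stood at 4.73, 201, 2932 and 4039 CPM. At D7 CTX they stood at 95.2, 281, 1806 and 878 CPM, so MHC II-rich cells, 16 in number, were below non-cycling cells in that library. Lrp1 was lower in MHC II-rich than in non-cycling cells in each, at 53.3 against 209 CPM in naive, 211 against 298 at D2 and 76.4 against 213 at D7, unlike in the sorted pair. Clec4a3 was at 165 against 314 CPM in naive, 499 against 298 at D2 and 315 against 233 at D7. Azurophil-rich over non-cycling cells left 8.98% of genes higher and 12.3% lower in naive BM, 26.1% and 13.9% at D2, and 8.93% and 9.23% at D7. The 5 members had a log2 difference below -1 in each, although at D2 only 2 of them passed the filter on low values. Clec4a1 in naive BM (12.4 CPM in azurophil-rich cells), Apoe at D2, and Clec4a1 (7.29) and Clec4a3 (15.0) at D7 passed only through the non-cycling side. They could be counted only as lower. Cycling over non-cycling cells left 7.37% of genes higher and 4.54% lower in naive BM, 8.62% and 6.08% at D2, and 5.92% and 2.06% at D7, with 4 of 5 members lower in each. For MHC II-rich over non-cycling cells the shares were 1.7% and 6.8%, 2.2% and 4.59%, and 2.46% and 12.3%, with no member past the threshold upwards, and 2, 1 and 3 members below it.

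The question the sorted pair addresses is what CTX did to classical monocytes. In the whole monocyte gate, Apoe stood at 639 CPM in naive and 388 in CTX cells, a log2 ratio of -0.72 (-0.76 to -0.68). Clec4a1 went from 97.8 to 76.6 CPM (-0.35, interval -0.44 to -0.26), Clec4a3 from 147 to 119 (-0.31, -0.38 to -0.24) and Lrp1 from 82.1 to 68.6 (-0.26, -0.35 to -0.16). Fn1 was at 1533 and 1526 CPM (-0.01, -0.03 to 0.01). At a threshold of 1 log2 unit, 0.018% of 5551 genes were higher and 0.757% lower after CTX, and 0 of 5 members were past it in either direction. The median of the members was -0.30 and that of all genes 0.03. With the CTX gates weighted to the naive shares of UMIs, the median was -0.15.

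Inside the gates the ratios of Apoe went in opposite directions. In azurophil-rich cells it was at 6.80 CPM in naive and 56.6 in CTX, a log2 ratio of 3.06 (2.48 to 3.69) and a fold of 8.32. In this gate 0.136% of 5141 genes were past the threshold upwards and 0.311% downwards. Of the members, 3 passed the filter on low values, and Apoe passed it only through the CTX side, with 332 UMIs against 26, so that it could be counted here only as higher. Its count past the threshold therefore carries no weight of its own. In cycling cells it was at 53.3 and 89.8 CPM (0.75, 0.59 to 0.92), in a gate with 0.0178% of genes higher and 0.428% lower and 0 of 5 members past the threshold. In non-cycling cells it was at 1235 and 840.2 CPM (-0.56, -0.60 to -0.52), where 0.0372% of genes were higher and 0.967% lower, again with 0 of 5 members. In the few MHC II-rich cells, with 0.552% of 181 genes higher and 3.87% lower, Apoe was the 1 member that passed the filter, and its interval spanned 0 (-0.11 to 0.26).

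The other members moved less between the sorted libraries. Lrp1 had a log2 ratio of 0.54 in azurophil-rich cells, on 49 and 109 UMIs, and of -0.19 in non-cycling cells, and its interval spanned 0 in cycling cells (-0.22 to 0.22). Clec4a1 had -0.47, -0.26 and -0.19 in azurophil-rich, cycling and non-cycling cells. Clec4a3 had -0.20 in non-cycling cells, with intervals spanning 0 in azurophil-rich and cycling cells. Fn1 had 0.19, 0.04 and 0.02. None of these reached 1 log2 unit.

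**Figure D2:**
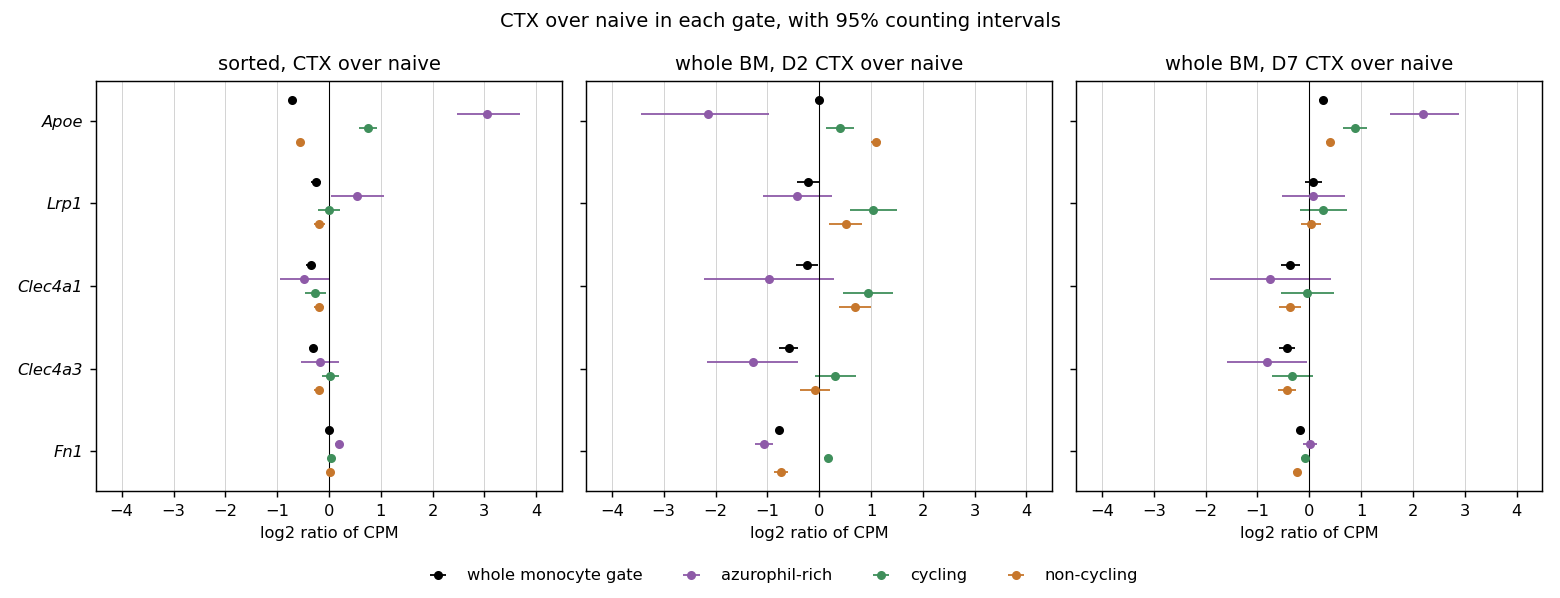
Log2 ratio of CPM, CTX over naive, for each member in the sorted pair and in whole BM at D2 and D7, with 95% counting intervals. Points mark the whole monocyte gate and its azurophil-rich, cycling and non-cycling subgates. MHC II-rich cells are not drawn. Apoe in azurophil-rich cells lies at 3.06 in the sorted pair and 2.19 in D7 CTX BM, and in non-cycling cells at -0.56 and 0.40.

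At D7 CTX, whole BM gave both a like and an unlike picture. Apoe in azurophil-rich cells was at 20.9 CPM in naive and 95.2 in D7 CTX, a log2 ratio of 2.19 (1.55 to 2.89), where 0.915% of 2295 genes were higher and 0.0% lower. In this gate 2 members passed the filter, and Apoe did so only through the D7 side, with 209 UMIs against 22. Against the same naive gate the D2 value, on 9 UMIs and below the filter, went the other way (-2.14, -3.45 to -0.97). In cycling cells it was at 152 and 281 CPM (0.88, 0.65 to 1.12), with 0.726% of 2479 genes higher and 0.0403% lower. In non-cycling cells, however, it was at 1369.5 and 1806 CPM (0.40, 0.33 to 0.47), the direction opposite to the sorted pair, in a gate with 0.232% of genes higher and 0.232% lower. In the whole monocyte gate it was at 693 and 831 CPM (0.26, 0.20 to 0.33), with 0.507% of 5717 genes higher and 0.28% lower and 0 of 5 members past the threshold. The naive whole BM library serves as the control of both D2 and D7. Clec4a1 (101 and 77.9 CPM, -0.37), Clec4a3 (158 and 118, -0.43) and Fn1 (1539.9 and 1355, -0.18) were lower at D7 CTX in the monocyte gate, and the interval of Lrp1 spanned 0 (-0.09 to 0.25).

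At D2 CTX the gate held fewer cells of another make-up. Azurophil-rich cells were 21.6% of the 213 gated cells and gave 50.1% of their UMIs, and non-cycling cells were 28.6% of cells and 10.5% of UMIs. In naive BM, azurophil-rich cells were 14.9% of cells with 25.2% of UMIs. Over the whole gate Apoe stood at 693 CPM in naive and 692 at D2 CTX (0.00, -0.08 to 0.07). This near equality was not kept in every setting. The log2 ratio of Apoe was 0.98 with the D2 gates weighted to the naive shares of UMIs. It was 0.81 with the mean of the cells' CPM and -0.34 with all 4 markers required. The cause was not tested. Clec4a3 went from 158 to 105 CPM (-0.59) and Fn1 from 1539.9 to 904 (-0.77). Among 5090 genes, 3.69% were higher and 1.83% lower, and 0 of 5 members were past the threshold. The median of the members was -0.24, and it turned to 0.60 with the D2 CTX gates weighted to the naive shares of UMIs and to 0.21 with the mean of the cells' CPM.

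Within non-cycling cells at D2 CTX, Apoe was at 2932 CPM against 1369.5 in naive, a log2 ratio of 1.10 (0.99 to 1.20), and this gate had 3.27% of 1470 genes higher and 1.16% lower. Apoe was the 1 member of 5 past the threshold. Lrp1 was at 298 against 209 CPM (0.51) and Clec4a1 at 325 against 201 (0.69), while Clec4a3 stood at 298 and 314. Fn1 was lower, at 1307 against 2167 CPM (-0.73). At D2 CTX, Fn1 in cycling cells (1959 CPM) stood above Fn1 in non-cycling cells, unlike in the other 4 libraries. The D2 CTX non-cycling gate held 61 cells. Its summed neutrophil markers (6 genes) were at 3152 CPM against 1389.6 in naive, its summed macrophage markers (10 genes) at 80.1 against 45.1, and their part in these ratios was not tested.

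In the other gates at D2 CTX the members passing the filter were fewer. In azurophil-rich cells, where 5.01% of 2136 genes were higher and 3.79% lower, Fn1 was the 1 member that passed, at 563 CPM in naive and 269 at D2 (-1.06). Apoe rested there on 22 and 9 UMIs. In cycling cells, with 3.23% of 2043 genes higher and 1.86% lower, 3 passed and none of them was past the threshold. Apoe was at 152 and 201 CPM (0.40, 0.13 to 0.68) and Fn1 at 1739 and 1959 (0.17, 0.09 to 0.26). Lrp1, below the filter, was at 47.8 and 98.6 CPM on 64 and 118 UMIs.

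MHC II-rich cells of whole BM numbered 27 in naive, 42 at D2 and 16 at D7. At D2, with 4.85% of 330 genes higher and 0.606% lower, Apoe passed the filter at 2577 and 4039 CPM (0.65, 0.50 to 0.80). Clec4a3 was at 165 and 499 CPM and Lrp1 at 53.3 and 211, both below the filter. At D7, with 0.515% of 194 genes higher and 2.06% lower, Apoe was at 878 CPM (-1.55, -1.89 to -1.23). These 16 cells held 92 Apoe UMIs, from 5 cells, so the level rests on very few cells.

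The sorted and the whole BM libraries can also be set side by side within a gate, each again 1 library. In non-cycling naive cells Apoe was at 1369.5 CPM in whole BM and 1235 in sorted cells (0.15, 0.08 to 0.21), with 1.04% of 5403 genes higher and 2.87% lower and 0 of 5 members past the threshold. In non-cycling CTX cells it was at 1806 at D7 in whole BM and 840.2 in sorted cells (1.10), with 0.564% of 5494 genes higher and 0.892% lower, and Apoe was the 1 member past it. In cycling cells Apoe was the higher in whole BM in both states, at 152 against 53.3 CPM in naive (1.52, 0.76% of genes higher and 2.51% lower) and 281 against 89.8 in CTX (1.65, 0.452% and 0.853%). Fn1 differed by 0.08 and -0.05 in the same gate. In cycling cells the gap of Apoe between whole and sorted cells was thus larger than its gaps between treatments (0.88 and 0.75), and the sort and the mice cannot be told apart here.

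Counted per cell, Apoe was unevenly spread. To set depths equal, each cell was thinned to 2000 UMIs. Among sorted azurophil-rich cells 3 of 199 naive (1.51%, 0.312 to 4.34) and 23 of 346 CTX cells (6.65%, 4.26 to 9.81) held an Apoe UMI. Unthinned, the shares were 10.5% and 27.8%, at median depths of 19353.5 and 16764 UMIs. Free RNA gives UMIs in cells that do not express a gene, and specific-granule-rich neutrophils, which should lack Apoe, served as the background. They held it in 0 of 19 naive cells, which allows a share of up to 15.8%, and in 2 of 51 CTX cells (3.92%, 0.478 to 13.5), at median depths of 6477 and 7513 UMIs. In whole BM this background was better measured, at 0.772% in the naive library, 1.09% at D2 and 0.698% at D7. There, azurophil-rich monocytes held Apoe in 3 of 75 cells, 2.17% and 7.95% of cells. Median depths before thinning were 5302, 4523.5 and 7906.5 UMIs in the background cells and 12383, 39430.5 and 11957 in the monocytes. The azurophil-rich share at D7 (4.42 to 12.99) lay above the background of its own library (0.490 to 0.966), and the intervals of the other 4 libraries overlapped theirs.

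Cycling sorted cells held Apoe in 7.44% of naive and 10.96% of CTX cells, non-cycling cells in 48.7% and 43.2%, and MHC II-rich cells in 21 of 22 and 5 of 7. In whole BM, non-cycling cells held it in 54.6% of the naive cells, 51 of 60 at D2 and 62.8% at D7, and cycling cells in 12.7%, 31.25% and 25.9%. The order of the gates was that of the CPM. Fn1, by contrast, was found in 91.5% of naive and 91.8% of CTX non-cycling sorted cells, and in 53.3% and 53.8% of azurophil-rich cells. Clec4a3 was found in 38.8% and 34.9% of non-cycling cells, Clec4a1 in 27.6% and 26.6%, and Lrp1 in 26.6% and 20.8%.

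**Figure D3:**
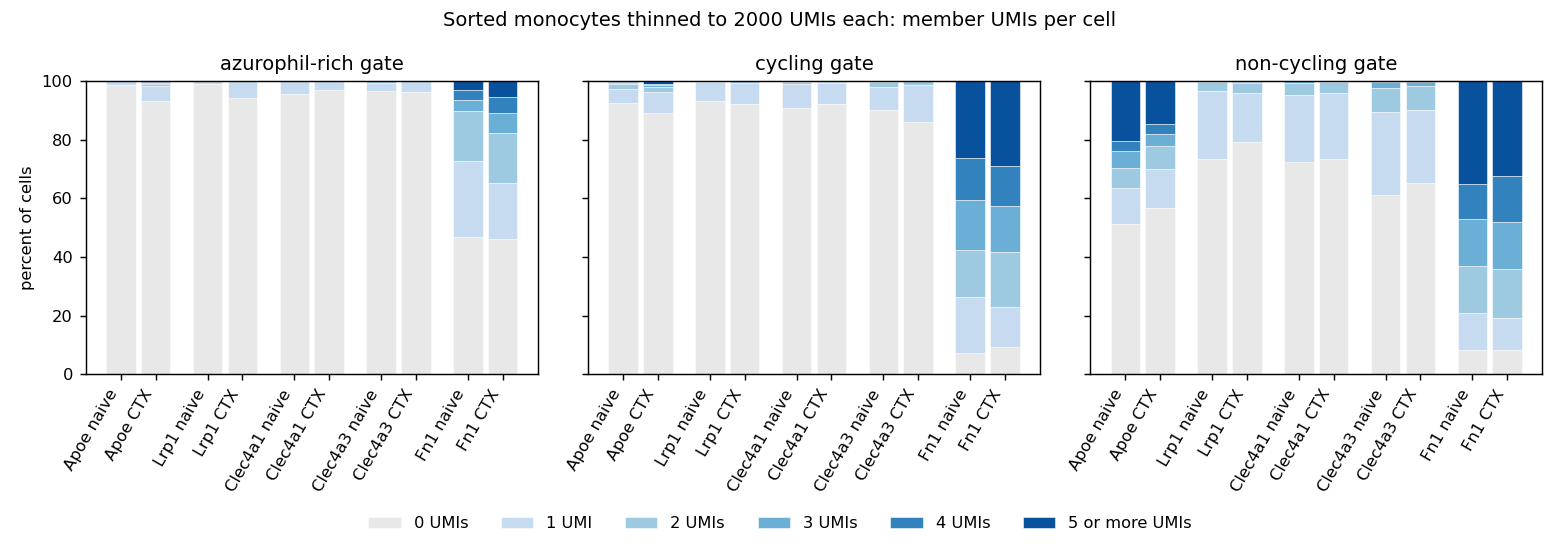
Percent of sorted cells with 0, 1, 2, 3, 4 or at least 5 UMIs of each member after thinning each cell to 2000 UMIs, as stacked bars for naive and CTX in 3 gates. Apoe is at 5 or more UMIs in 20.3% of naive and 14.6% of CTX non-cycling cells, next to 51.3% and 56.8% with none.

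A few cells carried much of the Apoe signal in azurophil-rich gates. The 332 UMIs of the sorted CTX gate came from 97 cells, with up to 42 in 1 cell, and the 5 highest cells gave 42.5% of them. Without those 5 the level was 33.0 CPM, against 4.29 in the naive gate without its own 5. In D7 CTX whole BM, 209 UMIs came from 41 of 177 cells, and the level without the top 5 was 50.2 CPM, while the 22 UMIs of the naive gate came from 8 cells and left 2.98 CPM. In both pairs the CTX gate was thus the higher with and without these cells. Among non-cycling sorted cells the 10% of cells highest in each gene held 53.5% of Apoe UMIs in naive and 55.4% in CTX, against 22.6% and 22.2% for Fn1. For Lrp1, Clec4a1 and Clec4a3 this share lay between 27.1% and 33.3%.

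The members were found only in part in the same cells. Among non-cycling naive sorted cells thinned to 2000 UMIs, Clec4a3 was present in 45.7% of the 506 cells with Apoe and in 32.3% of the 532 without. In the CTX library the shares were 42.5% and 29.1%. Spearman's rho of the pair was 0.16 over 1038 and 0.17 over 1216 cells, which share a library and a depth. Apoe and Fn1 gave -0.16 and -0.08, Apoe and Lrp1 0.09 and 0.07, and the neighbouring genes Clec4a1 and Clec4a3 0.03 and 0.09. Such weak values in sparse counts are a description of the cells only.

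Across 14 units of library and gate with at least 50 cells, the levels on a log2(CPM + 10) scale ran together. The units share libraries and their cells' depth, and 8870 genes were ranked. MHC II-rich cells are not among the units, since they numbered under 50 in each library. The members were chosen by their levels in these gates, so their likeness to each other is a description only. Clec4a1 and Clec4a3 had each other as the gene most alike (r = 0.99), followed by Samhd1, a nucleotide hydrolase that limits viral replication. Apoe was most like Jaml, a junctional adhesion molecule of leukocytes (0.98), Camk1, a calcium-dependent kinase (0.98), and Sema4d, a semaphorin (0.97). Lrp1 was most like Camk1, Jaml and Fcho2, an endocytic adaptor, at 0.98 to 0.99. Apoe with Lrp1 gave 0.96 and Apoe with each lectin gene 0.91. Fn1 stood apart at 0.68 to 0.78 with the other members, and was most like Cast, a calpain inhibitor (0.95), the complement gene C3 (0.94) and Id2 (0.93).

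In whole BM, Apoe was highest in the macrophage gate (C1qa, C1qb and C1qc), at 2399.6 CPM in naive, 3039 at D2 CTX and 5719.6 at D7 CTX, from 49, 111 and 20 cells of under 1000 UMIs in the median. Monocytes followed at 693, 692 and 831 CPM. Basophils and mast cells followed at 390.2, 228 and 789 CPM, and the interval of the last (680 to 911) overlapped that of D7 CTX monocytes (810 to 853). B lineage cells were at 33.2, 114 and 19.6 CPM and T/NK cells at 3.91, 24.4 and 15.6. The monocyte gate held 57.7%, 46.0% and 77.7% of all Apoe UMIs in the 3 libraries, and 90.4%, 95.8% and 91.2% of those of Fn1. Lrp1 was likewise highest in macrophages (289.9, 338 and 258 CPM) and next in monocytes, and Fn1 was highest in monocytes.

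**Figure D4:**
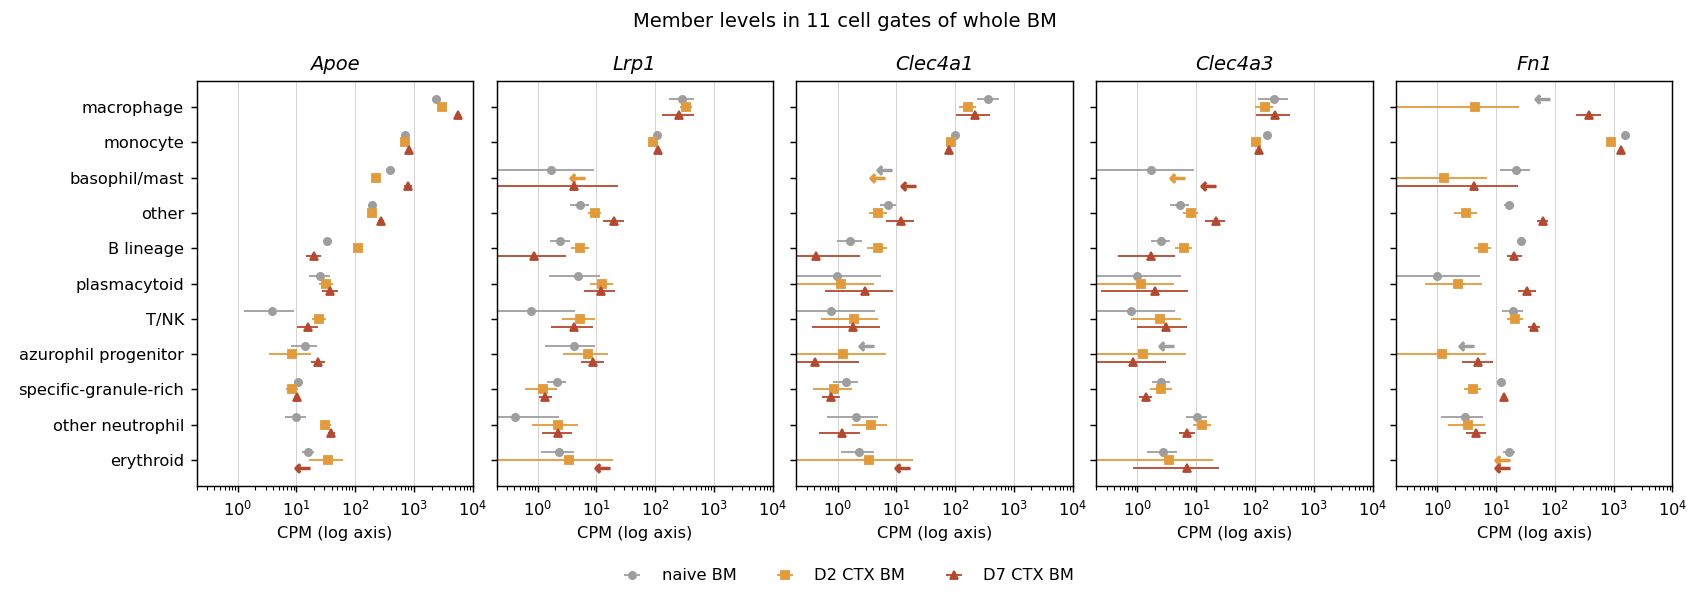
Level of each member (CPM, log axis) in the 11 cell gates of naive, D2 CTX and D7 CTX whole BM, with 95% Poisson intervals and an arrow at the upper limit where a gate held no UMI. Apoe and Lrp1 are highest in macrophages, followed by monocytes, and Fn1 is highest in monocytes, at 904 to 1539.9 CPM.

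Markers of other cells were measured in the same gates. Summed over 10 macrophage markers, the sorted monocyte gate held 10.4 CPM in naive and 6.74 in CTX cells, with C1qa, C1qb and C1qc at 0 UMIs in both. In whole BM the sum was 35.4, 50.04 and 22.5 CPM in naive, D2 CTX and D7 CTX. In MHC II-rich against non-cycling cells of whole BM it was 224 against 45.1 CPM in naive, 335 against 80.1 at D2 and 162 against 28.1 at D7, with C1qa, C1qb and C1qc at 0 in the MHC II-rich cells of naive and D7 and present in those of D2. Cells rich in these C1q genes had been gated as macrophages before monocytes were gated, so low C1q levels in whole BM monocytes were in part set by the gating. The median Ly6c2 level of the MHC II-rich cells of whole BM was 0.994, 0.0 and 0.0 per 10000 UMIs, against 4.82 in the sorted naive ones. In azurophil-rich cells the sum was 7.06 and 6.98 CPM in the sorted pair and 7.60 and 19.1 in naive and D7 CTX whole BM, beside the Apoe values given for these gates. Summed neutrophil markers in azurophil-rich cells were 41.6 and 57.6 CPM in the sorted pair and 193 and 1359.9 in naive and D7 CTX whole BM. Their part in the Apoe ratios was not tested. Monocytes with Ly6c2 below 1 per 10000 UMIs, a cut chosen after its values were seen, held more Apoe than the others in 4 of 5 libraries, with 2133 against 620.0 CPM in sorted naive and 1236 against 373 in sorted CTX cells. In D7 CTX whole BM they held 673 against 839 CPM. Among non-cycling cells alone they held more Apoe in each library. In D7 CTX whole BM this was 2022 against 1798 CPM, from 23 and 388 cells with overlapping intervals (1753 to 2321 and 1747 to 1850).

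The genes around ApoE and LRP1 were taken as a list of 23, with receptors, lipid exporters, apolipoproteins and LRP1 ligands. In the sorted pair 8 passed the filter on low values and 0 were past 1 log2 unit, with a median of -0.01 beside 0.03 for all genes. Plaur, the urokinase receptor, was at 105 and 76.5 CPM in the sorted pair (-0.46), and Lrpap1, the chaperone of LRP1, at 116 and 118. Trem2, a receptor that binds ApoE, was at 51.5 and 50.9 CPM. In whole BM monocytes Trem2 was at 51.7 CPM in naive, 50.6 at D2 CTX (-0.03) and 91.1 at D7 CTX (0.80). Between azurophil-rich and non-cycling naive sorted cells, 4 of 11 passing genes were lower, where 10.7% of all genes were, among them Apoc1, the apolipoprotein gene next to Apoe, at 1.83 and 26.1 CPM, Abcg1, a cholesterol exporter, at 3.92 and 21.5, and Sorl1, a sorting receptor, at 52.5 and 116. Apoc1 and Abcg1 passed the filter only through the non-cycling side, so they could be counted here only as lower. In the CTX library 1 of 8 was lower, near the 9.18% of all genes. Apoc1 and Abcg1, at 16.5 and 17.35 CPM in CTX non-cycling cells, were below the 20 CPM of the filter and not among these 8. The genes counted thus differ between the 2 libraries.

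The lectin list held 9 counted genes of the Clec4 cluster with related receptors and the adapter Fcer1g. In the sorted pair 5 passed the filter and 1 was past the threshold, with a median of -0.05. That was Clec4e, the receptor Mincle, at 100.1 CPM in naive and 26.0 in CTX cells (-1.91). Whole BM monocytes did not show this drop, with Clec4e at 19.4 CPM in naive, 36.6 at D2 CTX (0.88) and 20.9 at D7 CTX (0.11). In the sorted pair Clec4a2, a family member with an inhibitory motif, stood at 274 and 330 CPM (0.27). Clec12a was at 174 and 168 CPM. Between azurophil-rich and non-cycling naive cells 2 of 6 were lower, against 10.7% of all genes. They were Clec4e and Clec4d, while Clec4a2 was at 274 and 291 CPM, unlike Clec4a1 and Clec4a3 of the same family. Clec4d, at 20.4 CPM in non-cycling cells, passed the filter only through that side and could be counted only as lower.

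Of 13 genes for fibronectin receptors and partners, 6 passed and 0 were past the threshold in the sorted pair, with a median of -0.14. Thbs1, the matrix glycoprotein thrombospondin, was at 82.8 and 49.8 CPM (-0.72), and Itga4 and Itgb1, subunits of a fibronectin-binding integrin, at 135 and 123 and at 103 and 107. Thbs1 was also far lower in azurophil-rich (12.3 CPM) than in non-cycling naive cells (140.0). At D2 CTX in whole BM 2 of 7 were higher, against 3.69% of all genes. They were Thbs1 (74.0 and 154 CPM) and Vcan, a matrix proteoglycan of monocytes (6.47 and 126), both named after their values were seen. Vcan passed the filter only through the D2 side, so it could be counted here only as higher.

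Of 18 genes of Ly6C-low monocytes, the stage that follows classical monocytes, 9 passed and 1 was past the threshold in the sorted pair, with a median of -0.20. That was Nr4a1, a nuclear receptor needed for these cells, at 125 and 56.8 CPM (-1.13). Cx3cr1, the fractalkine receptor, was at 68.7 and 54.1 CPM, and Spn, which encodes CD43, at 65.2 and 80.4. Between azurophil-rich and non-cycling naive cells 4 of 10 were lower, against 10.7% of all genes, among them Cx3cr1 (18.8 and 105 CPM). Cx3cr1 passed the filter only through the non-cycling side and could be counted only as lower. Spn (92.3 and 32.6) was the 1 gene of 10 higher, near the 9.07% of all genes. At D7 CTX in whole BM 1 of 10 was higher, against 0.507% of all genes, namely Klf2, a transcription factor of resting leukocytes, at 182 and 416 CPM. In the sorted pair Klf2 went the other way, at 1553 CPM in naive and 1040 in CTX cells (-0.58).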

How the data were processed

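Data of 5 libraries of 10x 3′ V3 single-cell RNA were analysed. The authors deposited raw UMI counts per gene and cell, made with Cell Ranger 3.1 on mm10 per the submitters' processing notes, which also name Seurat 5.0. No table of cell types was used here. The 5 genes and 4 gene lists were described, and the genes, lists and gates were chosen with earlier results of these data known. Cells with at least 200 genes and under 20% mitochondrial UMIs were kept, gated by summed marker levels per 10000 UMIs without any member, and summed per library and gate.

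Levels in CPM are UMIs of a gene per 1000000 UMIs of its gate and carry 95% Poisson intervals (exact). Ratios have exact conditional 95% intervals. A gene was compared between groups where it held at least 200 UMIs in all and 20 CPM on 1 side, and 1 CPM was added for the threshold of 1 log2 unit. Ratios printed for members are those without the added CPM, and ratios of listed genes and all medians are with it. Cut values were 20 (azurophil), 40 (MHC II) and 5 (cycling). Cells near the azurophil cut had 10 to 50. Doublets were kept, and Scrublet scores were used in an alternative. Shares of cells were thinned to 2000 UMIs. The first 3 genes most alike were named for each member. From the lists, genes past the threshold in the sorted pair and at most 4 others that a result turns on were named, and those named for other contrasts were chosen after their values were seen. Python 3.11.15, numpy 2.4.6, scipy 1.17.1, pandas 2.3.3, scanpy 1.11.5 and matplotlib 3.10.9 were used, and the ratio code was tested on simulated data. The values of 1 listed gene are not reported here. No test between conditions was possible with 1 library each.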

Additional observations from a re-analysis of the deposited data

Results flagged for a closer look

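Several log2 ratios of CTX over naive pointed in opposite directions in samples or gates compared in the same way, with counting intervals that did not span 0. The difference was not tested in any of them, since each rests on 1 library per condition. For Apoe in the whole monocyte gate the ratio was -0.72 in the sorted pair and 0.26 in D7 CTX whole BM. In non-cycling cells it was -0.56 in the sorted pair and 0.40 in D7 CTX whole BM. Within the sorted pair it was 3.06 in azurophil-rich and 0.75 in cycling cells, against -0.56 in non-cycling cells. Within D7 CTX whole BM it was 2.19 in azurophil-rich, 0.88 in cycling and 0.40 in non-cycling cells, against -1.55 in the 16 MHC II-rich cells.

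Lrp1 in the sorted pair was at 0.54 in azurophil-rich and -0.19 in non-cycling cells. Clec4a1 in the sorted pair was at -0.47 in azurophil-rich, -0.26 in cycling and -0.19 in non-cycling cells, against 1.17 in MHC II-rich cells, of which the CTX library held 7. The azurophil-rich value of Clec4a1 rested on 76 naive and 84 CTX UMIs and the MHC II-rich one on 37 and 17. These 2 values, and that of Lrp1 in azurophil-rich cells (49 and 109 UMIs), were below the filter. Clec4a3 in D7 CTX whole BM was at -0.82 in azurophil-rich and -0.43 in non-cycling cells, against 0.93 in MHC II-rich cells. Its azurophil-rich value rested on 28 naive and 33 D7 UMIs and its MHC II-rich value on 31 and 33, both below the filter. Fn1 in the sorted pair was at 0.19 in azurophil-rich and 0.042 in cycling cells, against -1.12 in MHC II-rich cells. The MHC II-rich value rested on 149 naive and 14 CTX UMIs and was below the filter. In cycling cells Fn1 was at -0.089 in D7 CTX whole BM.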

How the results depend on the processing

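With 1 library per condition, no library could be left out. No paired analysis was possible because no group has more than 1 sample. The number of members past 1 log2 unit in the whole monocyte gate stayed at 0 under the alternatives run. The median of the members at D2 CTX (-0.24) was -0.60 with all 4 markers required, and reversed to 0.21 with the mean of the cells' CPM and to 0.60 with the gates weighted to the naive shares. Under these last 2 settings Lrp1 reversed to 0.21 and 0.60, Clec4a1 to 0.57 and 0.71 and Clec4a3 to 0.13 and 0.095, and Apoe at D7 CTX reversed to -0.062 under the first. The cause was not tested. The median at D7 CTX (-0.18) was -0.12 with scaling by the median of gene ratios, and that of the sorted pair (-0.30) was -0.15 with weighted gates. For azurophil-rich over non-cycling sorted CTX cells the median (-3.08) was -2.71 at an azurophil cut of 10 and -3.98 at 50, and for naive cells (-3.11) -3.74 at 50. For cycling over non-cycling sorted CTX cells (-1.79) it was -1.64 and -1.94 at these azurophil cuts, and -1.55 and -2.03 at cycling cuts of 3 and 10, with -2.14 for naive cells (-1.91) at 10. For MHC II-rich over non-cycling naive cells (0.26) it was -0.38 without the 5 cells highest in each member, a setting chosen after seeing the data, and Lrp1 in the CTX library reversed to -0.82 at an MHC II cut of 80. Among single members, 102 other values moved by more than their interval and 365 did not. Gates of few cells (7 to 27 MHC II-rich cells outside D2 CTX) and levels under 20 CPM limit what the depth can show.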
